A study of Mus musculus with 4 samples.

Results

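The genes described here are 39 mouse genes of nucleic-acid sensing and of the interferon response, chosen by symbol from a table of 37991 Ensembl genes. All 39 had a row. They were sorted by role into 4 genes of DNA sensing, 7 of RNA sensing, 6 encoding a kinase and transcription factors, 6 encoding interferon receptor chains and their kinases, and 16 interferon-stimulated genes. Transcripts were counted by RNA-seq, with mouse embryonic stem cells (mESC) of 2 genotypes as the material, wild type (wt) and null for the B-type lamins (dKO), with 2 biological replicates each. B-type lamins, encoded by Lmnb1 and Lmnb2, form filaments under the inner nuclear membrane. All 4 libraries carried the strain label ZHBTc4, the name of an embryonic stem cell line whose Oct4 comes from a tetracycline-suppressible transgene. The labels name no treatment. Nothing in the labels says how many lines a genotype comprises, so loss of the lamins and a difference between lines cannot be told apart. The p-values measure only the spread between these samples. Whether tetracycline was used is not given in the sources used here.

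Cells detect foreign or misplaced nucleic acid with dedicated receptors. DNA in the cytoplasm is bound by cGAS, which makes a cyclic dinucleotide that activates STING, and double-stranded RNA is bound by RIG-I and MDA5, which act through MAVS. Both routes lead through the kinase TBK1 to the factors IRF3 and IRF7 and to type I interferon, which signals through its receptor, the kinases JAK1 and TYK2, and factors that include STAT2 and IRF9 to induce antiviral genes. Embryonic stem cells are known for a weak interferon system, while expressing some antiviral genes constitutively. The DNA that cGAS detects can include chromatin exposed when a nuclear envelope ruptures.

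The targeted transcripts matched the labels. Lmnb1 had 667 and 547 CPM (counts scaled to library size with TMM, trimmed mean of M-values, factors) in wt against 4.24 and 6.02 in dKO cells, and Lmnb2 had 105 and 117 against 2.52 and 3.28. Library totals ran from 12899964 to 16697970 counts, at which 3 counts correspond to 0.179 to 0.235 CPM. All 8 stem cell markers examined were detected in every library, with Pou5f1 at 813 ± 88.4 CPM in wt and 806 ± 22.4 in dKO cells (SD, n = 2 each). They were not all alike between genotypes, since Zfp42 had 666 and 613 CPM in wt against 1449 and 1435 CPM in dKO libraries (log2 fold change 1.17, adjusted p = 0.0886 in edgeR), and Klf4 and Esrrb also had both dKO values above both wt values. Dppa5a went the other way, with 752 and 837 CPM in wt against 705 and 746 in dKO libraries. Pou5f1, Nanog, Sox2 and Tdgf1 overlapped between genotypes. Of all genes tested, 17.2% did not overlap and were higher in dKO cells, and 16.4% were lower. The 8 fibroblast markers, which feeder cells would carry, summed to 7.27 and 12.4 CPM in wt and 4.85 and 5.91 CPM in dKO libraries. Among them Col3a1, Dcn, Lum and Postn had at most 7 counts in any library. Pdgfrb had 13 and 56 counts in wt against 1 and 7 in dKO libraries, Col1a1 had 20 and 43 against 21 and 20, and Col1a2 had 6 and 45 against 8 and 12. Thy1 had 48 and 33 counts in wt against 41 and 54 in dKO libraries, so its genotypes overlapped. Of 12 blood and immune markers, Tyrobp and C1qa were at 0 throughout, Ptprc had 1 count in all, and the sum (135 and 141 CPM in wt, 160 and 229 in dKO) was mostly Laptm5. Laptm5 had 104 and 116 CPM in wt against 135 and 198 in dKO libraries. Cd68 had 22.1 and 16.2 CPM in wt against 16.3 and 21.5 in dKO libraries, and Coro1a and Cd3e were detected and also overlapped.

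Interferon-stimulated genes are recognised by a promoter element, the interferon-stimulated response element (ISRE), which binds IRF9-containing complexes and other IRF factors. RefSeq promoter windows (build GRCm38.p6) were found for 34 of the 39 genes. The 250 bases before each start were searched on both strands for its core (GAAA, any 2 bases, GAAA). It occurred in 8 of the 34 genes (23.5%), of which 7 were among the 13 interferon-stimulated genes with a window, against 3.46% of all 27025 genes (2.98% of windows). The other motif searched, the palindromic interferon-gamma-activated element TTCNNNGAA, occurred in 8 of 34 genes, against 8.13% of all genes. A match describes letters and not binding. The 160 bases before the start are shown 5′ to 3′ along the gene for 7 members that differ in level. Whether the element goes with a difference between genotypes was not tested. Capitals mark matches to the ISRE core, on either strand and merged where matches overlap. Isg15, Ifit1 and Rsad2 are classical interferon-stimulated genes that were nearly silent here, Oas1a and Bst2 were expressed with lower mean values in dKO cells, and Ifitm2 and Ifitm3 are genes of 1 cluster of which the latter has no match.
Isg15: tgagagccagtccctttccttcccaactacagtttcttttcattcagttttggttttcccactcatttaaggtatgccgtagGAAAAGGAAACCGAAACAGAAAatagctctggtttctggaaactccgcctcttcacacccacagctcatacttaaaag
Ifit1: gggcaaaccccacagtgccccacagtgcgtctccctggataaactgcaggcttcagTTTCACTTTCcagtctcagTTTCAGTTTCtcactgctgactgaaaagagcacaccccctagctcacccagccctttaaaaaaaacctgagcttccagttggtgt
Rsad2: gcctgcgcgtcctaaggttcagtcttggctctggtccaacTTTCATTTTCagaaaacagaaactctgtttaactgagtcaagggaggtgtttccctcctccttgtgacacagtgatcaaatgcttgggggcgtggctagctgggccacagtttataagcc
Oas1a: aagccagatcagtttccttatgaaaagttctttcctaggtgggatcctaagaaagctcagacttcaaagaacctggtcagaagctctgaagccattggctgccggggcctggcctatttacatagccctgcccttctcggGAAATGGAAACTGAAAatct
Bst2: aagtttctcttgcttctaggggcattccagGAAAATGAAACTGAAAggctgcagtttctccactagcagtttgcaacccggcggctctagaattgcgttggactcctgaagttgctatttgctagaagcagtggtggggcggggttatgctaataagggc
Ifitm2: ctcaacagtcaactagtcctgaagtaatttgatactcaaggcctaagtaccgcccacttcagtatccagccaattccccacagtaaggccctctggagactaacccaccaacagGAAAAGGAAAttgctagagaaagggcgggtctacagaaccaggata
Ifitm3: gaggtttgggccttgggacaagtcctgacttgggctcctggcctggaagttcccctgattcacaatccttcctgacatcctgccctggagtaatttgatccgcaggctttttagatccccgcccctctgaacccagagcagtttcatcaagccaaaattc
The stretches lie at chr4:156200819-156200978 (minus strand) for Isg15, chr19:34640729-34640888 (plus strand) for Ifit1, chr12:26456453-26456612 (minus strand) for Rsad2, chr5:120907526-120907685 (minus strand) for Oas1a, chr8:71537473-71537632 (minus strand) for Bst2, chr7:140955962-140956121 (minus strand) for Ifitm2 and chr7:141010745-141010904 (minus strand) for Ifitm3. The matches begin 78, 72 and 66 bases before the start in Isg15, 104 and 85 in Ifit1, 120 in Rsad2, 20 and 14 in Oas1a, 130 and 124 in Bst2 and 46 in Ifitm2. The eighth gene with a match was Stat2, and Ifit3 also held 2. Bases just after the RefSeq start were found in a GENCODE transcript of the gene for 34 of 42 windows, but not for those of Bst2 and Stat2. The stretches of Ifit1, Ifitm2 and Ifitm3 overlap a GENCODE exon by 18, 26 and 26 bases, so annotations differ on where these genes begin.

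Comparing the genotypes asks whether transcript levels differ when B-type lamins are missing. In the main test, with genotype as its only term, no member passed an adjusted p of 0.05. Ifitm3, an antiviral membrane protein, stood closest, 2.27-fold higher in dKO cells, and Oas1a, a synthase of 2′-5′ oligoadenylates, was at 0.276 of its wt level. In that test no sensor, adaptor, factor or receptor gene with enough counts was called. Tmem173, Trex1, Ifih1, Irf7 and 8 of the 16 interferon-stimulated genes had too few counts to be tested. In bulk RNA, fewer cells expressing a gene and less RNA per cell cannot be told apart.

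In edgeR's quasi-likelihood test with Benjamini-Hochberg adjustment, 0 of the 27 members with enough counts to be tested were called, where 0.0855% of all genes were (12 of 14027, 0.0356% higher and 0.0499% lower in dKO cells). An unadjusted p under 0.05 was reached by 2 members, Ifitm3 and Oas1a, 1 higher and 1 lower, where 5.57% of all genes reached it (2.87% higher and 2.71% lower). DESeq2 and edgeR without a low-count filter each called 1 member, Ifitm3. A model with a term for the replicate number (replicate block) called more members and also more of all genes. The labels do not say that a number marks a shared culture, so its calls are given with the processing alternatives. The members had 11 positive and 16 negative log2 fold changes (dKO minus wt), with a median of -0.13 against -0.0019 over all genes tested, and the median was 0.10 without wt replicate 2. The CPM of the 2 genotypes did not overlap for 14 of the 27 members, 7 in each direction, where 33.6% of all genes tested did not (17.2% higher and 16.4% lower). The 95% interval of the log2 fold change lay within 1 of 0 for 17 of the 27 (63.0%), and for 65.5% of all genes tested.

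**Figure D1:**
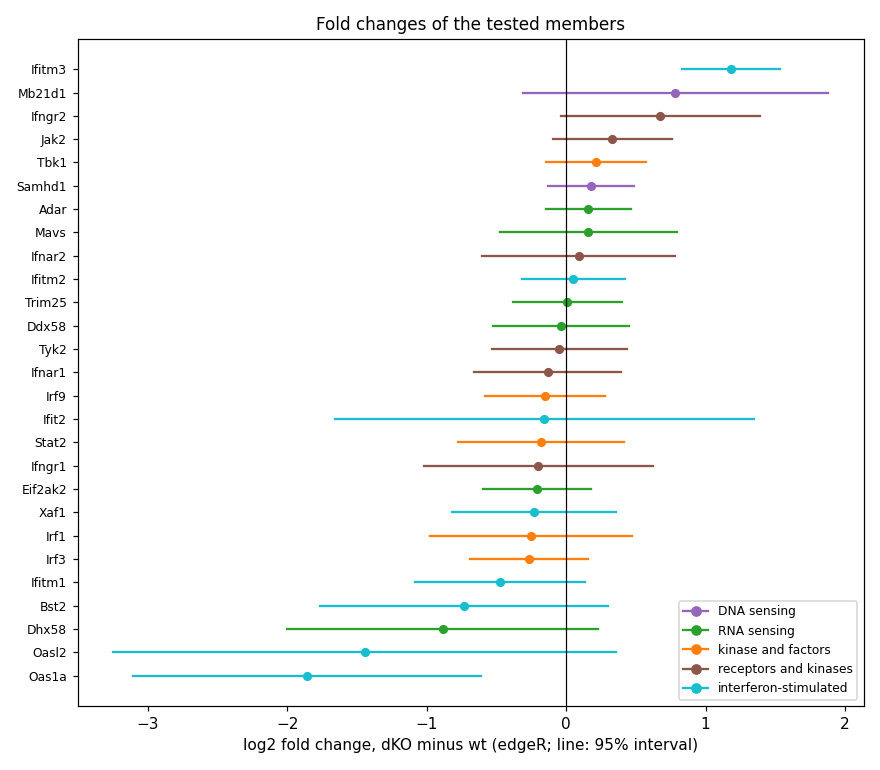
Log2 fold change (dKO minus wt, horizontal axis) of each of the 27 tested members, with its 95% interval from edgeR as a line and the role of the gene as its colour. Ifitm3 (1.18) and Oas1a (-1.86) are the members whose interval does not include 0.

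**Figure D2:**
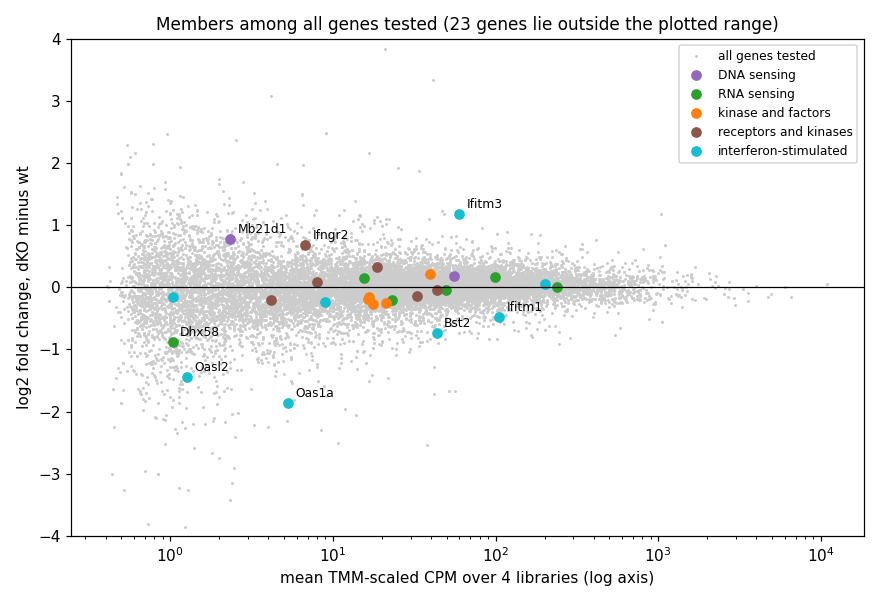
Mean CPM over the 4 libraries (log axis) against log2 fold change (dKO minus wt) for all 14027 genes tested (grey) and the 27 tested members (coloured by role), with 23 genes beyond 4 in either direction not drawn. Most members lie inside the cloud of genes of like abundance, and Ifitm3 lies at its upper edge.

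Of the 39 members 32 had at least 1 count in every library, 5 in some and 2, Trex1 and Ifit3, in none. The number detected was 35 and 36 in wt, against 34 and 35 in dKO libraries, so it did not separate the genotypes. The 12 members with too few counts to be tested were Tmem173, Trex1, Ifih1, Irf7 and 8 of the 16 interferon-stimulated genes. Tested genes made up 69.2% of the members and 36.9% of the whole table.

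**Figure D3:**
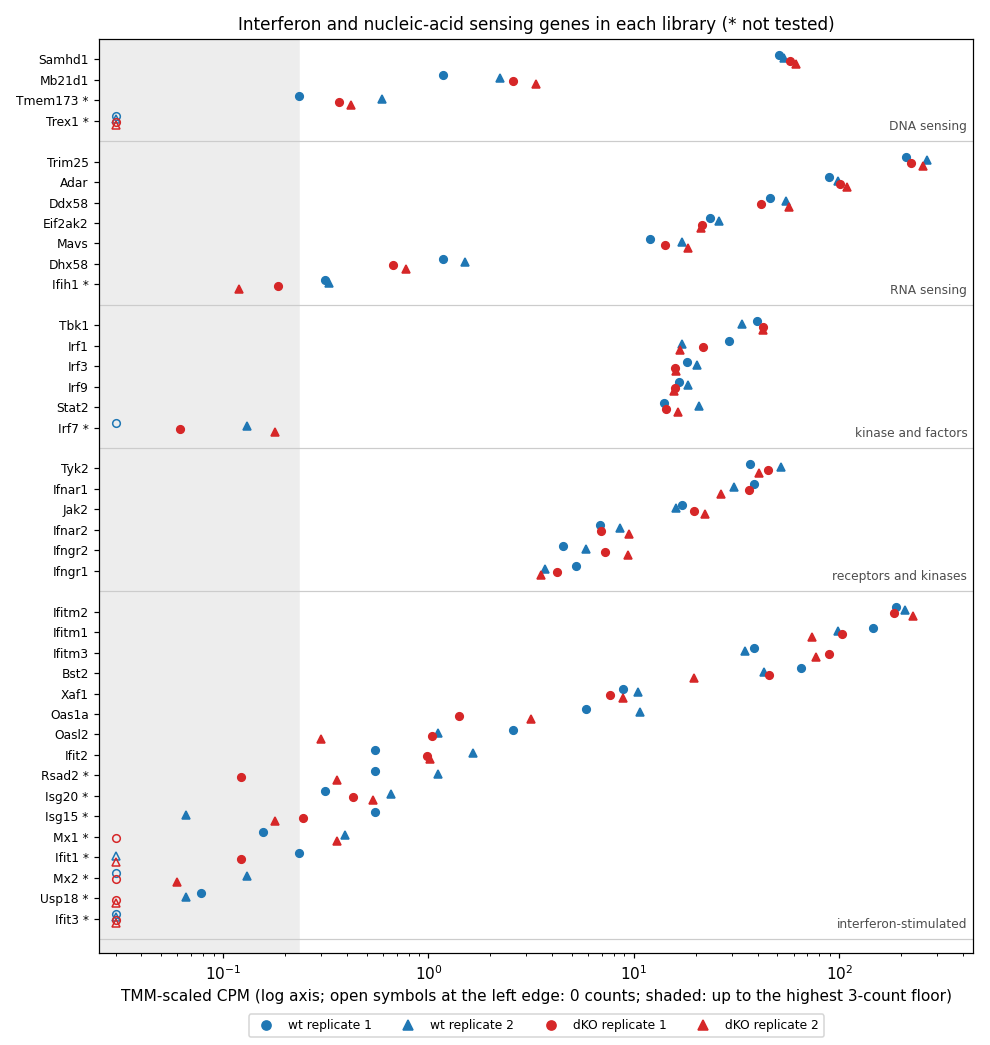
TMM-scaled CPM (log axis) of all 39 members in each of the 4 libraries, grouped by role, with wt in blue, dKO in red, replicate 1 as circles and replicate 2 as triangles. The genotypes overlap for some sensors, factors and receptors and do not for others. Tmem173, Trex1, Ifih1, Irf7 and the lower rows of the interferon-stimulated group lie at or near the floor of 3 counts.

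Of the 4 DNA-sensing genes, those for cGAS and STING were of low abundance in both genotypes. Mb21d1 (chromosome 9, 78278333 to 78291044), which encodes cGAS, had 1.17 and 2.24 CPM in wt, against 2.58 and 3.34 CPM in dKO libraries. Both dKO values lay above both wt values, from 15, 34, 42 and 56 counts. Its log2 fold change was 0.78 (SE 0.44, 95% interval -0.31 to 1.88, adjusted p = 0.942 in edgeR), and leaving out wt replicate 1 gave 0.40 and leaving out wt replicate 2 gave 1.33. Tmem173 (chromosome 18, 35893332 to 35900208), which encodes STING, had 3 and 9 counts in wt, against 6 and 7 in dKO libraries, too few to be tested and overlapping between genotypes. Samhd1 (chromosome 2, 156923265 to 156961001), a dNTP hydrolase that limits DNA available to sensors and viruses, stood highest of the 4 per kilobase of exon (6.10 CPM per kb, against 0.565 for Mb21d1), with 50.7 and 54.0 CPM in wt and 57.3 and 61.2 CPM in dKO libraries. Its genotypes did not overlap, with a log2 fold change of 0.18 (SE 0.13, adjusted p = 0.967 in edgeR). Trex1, the cytosolic DNA exonuclease, was listed at 0 in all 4 libraries. Its span in the table lies wholly inside that of Atrip on the same strand, and the part of this overlap in the 0 was not tested. Atrip had 302 and 381 counts in wt, against 396 and 399 in dKO libraries.

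Of the 7 RNA-sensing genes 6 were tested, and their mean levels per kilobase of exon ran from 0.316 CPM per kb for Dhx58 to 41.7 for Trim25. Trim25 (chromosome 11, 88860690 to 88881607), a ubiquitin ligase that acts on RIG-I, had 211 and 267 CPM in wt and 224 and 257 CPM in dKO libraries. The dKO values lay between the wt values, and the log2 fold change of 0.0089 (SE 0.16) was -0.0086 when scaled by total counts only. Adar (chromosome 3, 89518944 to 89557368), the editor that converts adenosine to inosine in double-stranded RNA and keeps self RNA from MDA5, had 89.1 and 98.6 CPM in wt and 101 and 109 CPM in dKO libraries. Both dKO values were the higher ones, by a log2 fold change of 0.16 (SE 0.12, adjusted p = 0.970 in edgeR). Ddx58, which encodes RIG-I, had 46.0 and 54.96 CPM in wt and 41.5 and 57.1 in dKO libraries. Ifih1, which encodes MDA5, had only 4 and 5 counts in wt, against 3 and 2 in dKO libraries, all of them near the floor of 3 counts.

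Dhx58 (chromosome 11, 100556018 to 100565585), which encodes the regulator LGP2, was low, with 1.17 and 1.51 CPM in wt and 0.675 and 0.775 CPM in dKO libraries. Both dKO values lay below both wt values, from 15, 23, 11 and 13 counts, with a log2 fold change of -0.88 (SE 0.45, adjusted p = 0.923 in edgeR). An antisense gene, Dhx58os, overlaps 29.4% of its span and had at most 1 count per library. Eif2ak2 (chromosome 17, 79251904 to 79281913), the RNA-activated kinase PKR that blocks translation, had 23.5 and 25.8 CPM in wt and 21.4 and 21.2 CPM in dKO libraries. Its dKO values were also the lower ones, with a log2 fold change of -0.21 (SE 0.16). Mavs, the mitochondrial adaptor of RIG-I and MDA5, overlapped between genotypes, with a log2 fold change of 0.16 (SE 0.26).

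Among the kinase and transcription factors, 5 of 6 were tested and the sixth, Irf7, had at most 3 counts in any library. Tbk1 (chromosome 10, 120983511 to 121023850), on which the DNA and RNA routes converge, had 39.7 and 33.5 CPM in wt and 42.4 and 42.3 CPM in dKO libraries. Its dKO values lay above both wt values, with a log2 fold change of 0.21 (SE 0.15, adjusted p = 0.961 in edgeR), and 0.09 without wt replicate 2. Irf3 (chromosome 7, 52253018 to 52258218), the factor that TBK1 phosphorylates, had 18.1 and 20.2 CPM in wt and 15.9 and 16.0 CPM in dKO libraries. Irf9 (chromosome 14, 56222408 to 56228867), a DNA-binding partner of STAT2, had 16.6 and 18.4 CPM in wt and 15.9 and 15.6 CPM in dKO libraries. Both were a little lower in both dKO libraries, with log2 fold changes of -0.27 (SE 0.17) for Irf3 and -0.15 (SE 0.17) for Irf9. Bcl2l12 overlaps 20.5% of the span of Irf3 and Rnf31 1.9% of that of Irf9, so their counts are less certain.

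Irf1 (chromosome 11, 53583516 to 53591876), an interferon-gamma-inducible factor, had 28.9 and 17.1 CPM in wt and 21.8 and 16.8 CPM in dKO libraries. Replicate 1 was the higher in each genotype and the genotypes overlapped, with a log2 fold change of -0.25 (SE 0.29) that was 0.17 without wt replicate 1. Stat2 had 14.1 and 20.6 CPM in wt and 14.3 and 16.3 in dKO libraries. Irf7, the interferon-induced factor that amplifies interferon production, had 0 and 2 counts in wt, against 1 and 3 in dKO libraries.

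All 6 receptor and kinase genes were detected and tested. Ifnar1 (chromosome 16, 91485483 to 91507686), a chain of the type I interferon receptor, had 38.5 and 30.6 CPM in wt and 36.5 and 26.6 CPM in dKO libraries, with overlapping genotypes and a log2 fold change of -0.13 (SE 0.21). Ifngr2 (chromosome 16, 91547317 to 91565414), a chain of the interferon-gamma receptor and a close neighbour of Ifnar1, had 4.53 and 5.85 CPM in wt and 7.24 and 9.37 CPM in dKO libraries. Both dKO values lay above both wt values, with a log2 fold change of 0.67 (SE 0.29, 95% interval -0.040 to 1.39, adjusted p = 0.907 in edgeR). Their partner chains overlapped between genotypes. Ifnar2, also in that cluster, had a log2 fold change of 0.09 (SE 0.28), and Ifngr1 on chromosome 10 had -0.20 (SE 0.33).

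Jak2 (chromosome 19, 29326318 to 29387570), a kinase of the interferon-gamma receptor, had 17.2 and 16.0 CPM in wt and 19.6 and 22.1 CPM in dKO libraries. The genotypes did not overlap, with a log2 fold change of 0.33 (SE 0.17, 95% interval -0.10 to 0.76, adjusted p = 0.937 in edgeR). Tyk2 (chromosome 9, 20908521 to 20931790), the kinase bound to IFNAR1, had 36.7 and 51.7 CPM in wt and 45.0 and 40.5 CPM in dKO libraries. Its dKO values lay between the wt values, with a log2 fold change of -0.05 (SE 0.20). An antisense gene, 1700084C06Rik, covers its span and had at most 1 count per library.

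The interferon-stimulated genes were split between a few abundant members and many near 0. Per kilobase of exon, the 4 members with the highest mean level over all libraries were Ifitm2 (309 CPM per kb), Ifitm1 (96.5), Ifitm3 (88.3) and Bst2 (48.0), ahead of Trim25 (41.7). For scale, Pou5f1 had 360 CPM per kb. All 16 interferon-stimulated members summed to 458 and 413 CPM in wt and 433 and 414 CPM in dKO libraries, so the genotypes overlapped. The 3 Ifitm genes summed to 373 and 343 CPM in wt and 376 and 380 CPM in dKO libraries. The other 13 interferon-stimulated members together had 85.1 and 69.3 CPM in wt and 57.5 and 34.5 CPM in dKO libraries. Without Bst2 the remaining 12 had 19.7 and 26.4 CPM in wt and 12.0 and 14.8 CPM in dKO libraries. Most of this sum was Oas1a and Xaf1 in every library, so it does not describe the 12 genes alike. Of all single genes tested, 16.4% did not overlap and were lower in dKO cells. The sums were not tested.

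The Ifitm proteins sit in membranes and block fusion of enveloped viruses, and their genes lie side by side on chromosome 7. Ifitm3 (148195485 to 148196669) had 38.5 and 34.7 CPM in wt and 88.9 and 77.2 CPM in dKO libraries, from 493, 528, 1448 and 1294 counts. Both dKO values stood above both wt values by more than the spread within either genotype. The log2 fold change was 1.18 (SE 0.14, 95% interval 0.83 to 1.53), with an unadjusted p of 0.000204 and an edgeR adjusted p of 0.151. It lay between 1.08 and 1.28 with any 1 library left out, where the adjusted p ran from 0.0589 to 0.211. The adjusted p was 0.000978 in edgeR with no low-count filter and 4.34e-06 in DESeq2 on unfiltered genes, so the call depended on the method.

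Ifitm2 (148140736 to 148141882) overlapped between genotypes, with 188 and 210 CPM in wt and 184 and 229 CPM in dKO libraries and a log2 fold change of 0.05 (SE 0.15) that had the other sign without wt replicate 1 (-0.03) or dKO replicate 2 (-0.11). Ifitm1 (148153120 to 148155724) had 146 and 99.0 CPM in wt and 103 and 73.8 CPM in dKO libraries. Replicate 2 was the lower in both genotypes, which overlapped, and the log2 fold change was -0.47 (SE 0.25, 95% interval -1.08 to 0.14, adjusted p = 0.937 in edgeR), or -0.17 without wt replicate 1. Whether the 3 genes differed from each other in their response was not tested. The same cluster holds Ifitm5, at 1.41 ± 0.22 CPM in wt and 1.46 ± 0.37 in dKO cells (SD, n = 2 each), and Ifitm6, with at most 3 counts per library. The Ifitm genes resemble each other in sequence, so reads shared between copies may have been dropped or misplaced.

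Oas1a (chromosome 5, 121346265 to 121357536) makes the 2′-5′ oligoadenylates that activate RNase L. It had 5.86 and 10.7 CPM in wt and 1.41 and 3.16 CPM in dKO libraries, from 75, 163, 23 and 53 counts. Both dKO values lay below both wt values, and replicate 2 was higher than replicate 1 in each genotype. The log2 fold change was -1.86 (SE 0.50, 95% interval -3.10 to -0.61), with an unadjusted p of 0.0112 and an edgeR adjusted p of 0.712. Leaving out wt replicate 2 gave -1.35, and leaving out dKO replicate 2 gave -2.54. The summed fibroblast markers given above had the same order of libraries within and between genotypes. Among the single markers Pdgfrb had that order and the others, Thy1 included, did not. The part of these markers in the Oas1a result was not tested.

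Oas1a lies in a cluster of Oas1 copies, examined after its value was seen. Oas1g had 3.13 and 6.57 CPM in wt and 1.47 and 2.74 CPM in dKO libraries (log2 fold change -1.20, edgeR adjusted p = 0.903). Oas1c had 1.95 and 4.67 CPM in wt and 0.921 and 1.79 CPM in dKO libraries (-1.29, adjusted p = 0.907 in edgeR). Oas1f had 12 and 28 counts in wt and 1 in each dKO library, 23.6-fold by counts (95% counting interval 6.12 to 202), with an edgeR adjusted p of 0.338. These 3 copies and Oas1a had non-overlapping genotypes in the same direction, while Oas1b, Oas1d, Oas1e and Oas1h overlapped; of all genes tested, 16.4% did not overlap and were lower in dKO cells. The copies are close in sequence and their counts are not independent of each other.

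**Figure D4:**
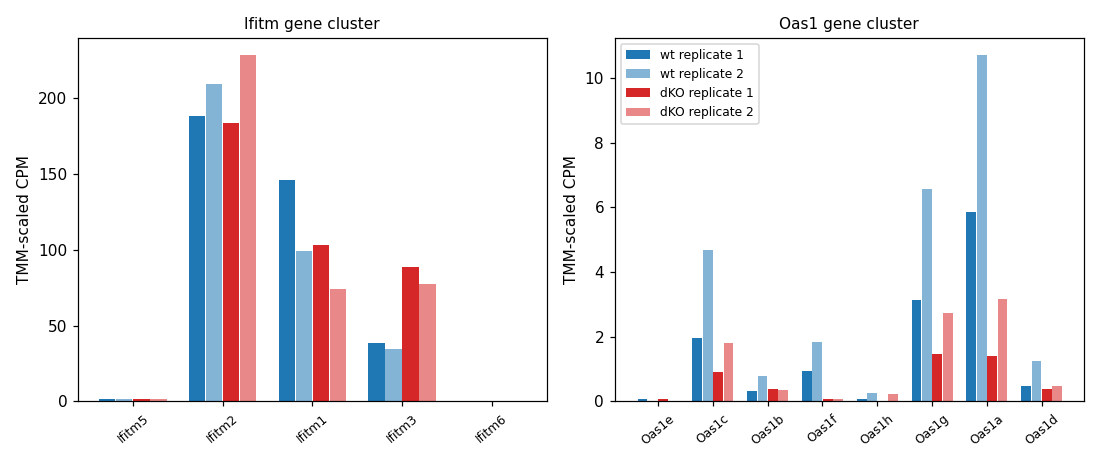
TMM-scaled CPM of each library (bars; wt blue, dKO red, replicate 2 in the lighter shade) for the genes of the Ifitm cluster (left) and the Oas1 cluster (right), ordered by position. Ifitm3 is higher in both dKO libraries, beside Ifitm2 and Ifitm1, whose genotypes overlap. Oas1a, Oas1g, Oas1c and Oas1f are lower in both dKO libraries.

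Oasl2 (chromosome 5, 115346943 to 115362243), an oligoadenylate synthetase-like antiviral gene, had 2.58 and 1.12 CPM in wt and 1.04 and 0.298 CPM in dKO libraries. Its dKO values lay below both wt values by a narrow margin, from 33, 17, 17 and 5 counts, and the log2 fold change of -1.44 (SE 0.73, adjusted p = 0.922 in edgeR) ran from -0.74 (without wt replicate 1) to -2.58 (without dKO replicate 1). Bst2 (chromosome 8, 74058163 to 74061336), the tetherin that holds budding virions at the cell surface, is given in full because of its level and was chosen after its values were seen. It had 65.4 and 42.9 CPM in wt and 45.5 and 19.7 CPM in dKO libraries. The genotypes overlapped and replicate 2 was the lower in each, with a log2 fold change of -0.73 (SE 0.42, adjusted p = 0.942 in edgeR) that was -0.24 without dKO replicate 2 and -1.45 without dKO replicate 1. Xaf1 (chromosome 11, 72115131 to 72127235), a pro-apoptotic interferon-inducible gene, had 8.83 and 10.5 CPM in wt and 7.67 and 8.83 CPM in dKO libraries, so that the genotypes barely separated (log2 fold change -0.23, SE 0.24).

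The most strongly inducible genes were close to silent in all libraries. Isg15, a ubiquitin-like modifier, had 7 and 1 counts in wt, against 4 and 3 in dKO libraries. Ifit1, which binds foreign RNA caps, had 3 and 0 counts in wt, against 2 and 0 in dKO libraries. Rsad2, the antiviral enzyme viperin, had 7 and 17 counts in wt, against 2 and 6 in dKO libraries, the dKO values below both wt values. Usp18, the protease that removes ISG15, had 1 count in each wt and 0 in each dKO library.

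Mx1 and Mx2, dynamin-like antiviral GTPases, had at most 6 and 2 counts in any library. Isg20, an exonuclease, had 4 and 10 counts in wt, against 7 and 9 in dKO libraries. Ifit2 was tested, with 0.547 and 1.64 CPM in wt and 0.982 and 1.01 in dKO libraries and a log2 fold change of -0.16 (SE 0.61). Ifit3 was listed at 0 in every library, and so was its near-identical neighbour Ifit3b, where reads that match both copies may have been dropped. Of the 8 members whose promoter window holds the ISRE core, Isg15, Ifit1 and Ifit3 had at most 10 counts in every library, Rsad2 was also too low to be tested, and Stat2, Ifitm2, Bst2 and Oas1a were tested.

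A list of 75 other genes of the pathway was examined beside the members, and 73 had a row. The 8 interferon ligand genes among them had 0 and 3 counts together in wt, against 0 and 1 in dKO libraries. Ifnb1, the first interferon made after sensing, was at 0 in every library, where a count of 0 allows up to 0.179 to 0.235 CPM. Of the 73 genes 50 were tested and 0 were called by edgeR (3 had an unadjusted p under 0.05, where 5.57% of all genes did), with 20 positive and 30 negative log2 fold changes and a median of -0.08. DESeq2 on unfiltered genes called 0. The replicate block did call some of them, and that count is given with the other processing alternatives.

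Socs3, a feedback inhibitor of cytokine receptors that is also a target of the LIF and STAT3 pathway of stem cells, had 118 and 99.5 CPM in wt and 141 and 155 CPM in dKO libraries (log2 fold change 0.44, SE 0.14, adjusted p = 0.723 in edgeR). Nmi, an interferon-inducible gene, had 2.81 and 1.71 CPM in wt and 1.11 and 0.895 CPM in dKO libraries (-1.16, SE 0.45). Nlrx1, a mitochondrial regulator of MAVS signalling, had 1.25 and 3.81 CPM in wt and 0.307 and 1.01 CPM in dKO libraries (-1.93, SE 0.77). These 3 had non-overlapping genotypes, and the latter pair were of low abundance. The most abundant of the list were Dhx9, an RNA helicase, with a log2 fold change of 0.06 (SE 0.14), and Pml, the organiser of PML nuclear bodies, with 0.06 (SE 0.19). Jak1, chosen as a partner of members after its values were seen, had a log2 fold change of -0.10 (SE 0.16).

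For most members the 2 replicates of at least 1 genotype differed by more than the genotype means did. On log2 CPM with a prior count of 2, the median absolute difference between replicates over the 27 tested members was 0.33 in wt and 0.20 in dKO cells, against 0.21 between genotype means. Over all genes tested these medians were 0.25, 0.22 and 0.16. The genotype difference was larger than both replicate differences for 9 members (33.3%), and for 23.0% of all genes tested. The 9 were Ifitm3, Ifngr2, Jak2, Samhd1 and Adar with positive and Oas1a, Dhx58, Irf3 and Eif2ak2 with negative differences.

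Replicate 2 lay on the same side of replicate 1 in both genotypes for 23 of the 27 members, 15 higher and 8 lower, and for 72.3% of all genes tested. Bst2 had differences (replicate 2 minus replicate 1, log2 CPM) of -0.61 in wt and -1.20 in dKO cells, Oasl2 of -1.12 and -1.45, and Ifitm1 of -0.56 and -0.48. Oas1a had differences of 0.86 and 1.09 in the other direction. Interferon-stimulated members thus differed in both directions between the replicates.

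**Figure D5:**
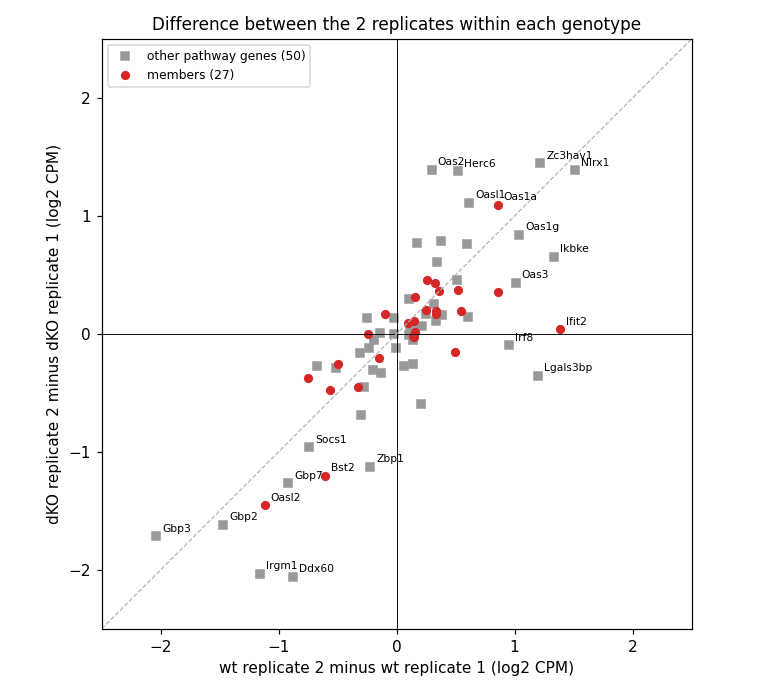
Replicate 2 minus replicate 1 in wt cells (horizontal axis) against the same in dKO cells (vertical axis), in log2 CPM, for the 27 tested members (red circles) and 50 other pathway genes (grey squares), with the line of equality dashed. Bst2 and Oasl2 lie in the lower left with the Gbp genes, and Oas1a in the upper right.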

How the data were processed

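Total RNA from 2 wt and 2 dKO samples was isolated with Trizol, and libraries were prepared with the Illumina TruSeq RNA kit, per the labels' protocols. The authors deposited raw read counts per Ensembl gene, with gene positions, 1 column per library. Per the submitters' processing notes the tools were TopHat2 2.0.6, TopHat and HTSeq, without their roles. Build, annotation and strand setting of the counts: each is not given in the sources used here. Gene positions are as the table gives them, while promoter sequences are from RefSeq on GRCm38.p6. Symbols and exon lengths came from GENCODE M21 by gene ID, and Mb21d1 was matched through its later symbol Cgas.

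Libraries were grouped by title. Genes passing filterByExpr (14027) were TMM-scaled and compared in edgeR 4.0.16 under R 4.3.3 (robust quasi-likelihood F test), genotype as the only term, Benjamini-Hochberg over all genes, threshold 0.05. SEs come from the F statistic. CPM for all genes use the same scaling. Every pair of libraries differed beyond sampling noise, with 13.0 to 31.3 as the chi-square over its degrees of freedom. It was lowest between same-numbered libraries of the 2 genotypes (13.0 for replicate 1, 15.3 for replicate 2). Between the replicates of 1 genotype it was 20.1 in wt and 20.0 in dKO cells. Intervals from counts and the floor of 3 counts cover counting error only. On simulated counts over 13816 genes the test recovered 6% of genes changed 1.5-fold, 30% at 2-fold, 76% at 4-fold and 94% at 8-fold (50 each), with 8 of 111 calls false. The data gave 12 calls over 14027 genes, and the adjusted threshold is stricter where fewer genes pass. These shares may therefore overstate what the test recovers in the data. Exact permutation of 2 against 2 libraries cannot go below p = 0.333.

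The alternatives tried were total counts only, DESeq2 size factors, no low-count filter, a CPM filter, DESeq2 1.42.0, limma-voom (limma 3.58.1), a replicate block and each library left out. Members and lists were chosen with earlier results of these data known. Values per library are printed for Mb21d1 and Tmem173, for tested members with an unadjusted p under 0.05 or non-overlapping genotypes, and for the 2 members of highest mean CPM in each role, with other pathway genes named at an unadjusted p under 0.05 (at most 6 in each direction) or among the 2 of highest CPM. Members or neighbours outside this rule are given for context, and 1 other pathway gene is not reported here.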

Additional observations from a re-analysis of the deposited data

How the results depend on the processing

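Where 12 genes were called in all, 5 were by limma-voom, 80 without the low-count filter, 92 by DESeq2, 1299 with a replicate block and 18 to 27 when 1 library was left out. The count of 0 called members was 1 (Ifitm3) with no low-count filter and by DESeq2, 6 with a replicate block and 0 to 0 with 1 library left out. With the block the 6 were Ifitm3 and Ifngr2, higher, and Oas1a, Oasl2, Bst2 and Ifitm1, lower (22.2% of 27 members, where 9.26% of all genes were called), and 7 other pathway genes were called in place of 0. Their log2 fold changes with the block were 1.18, 0.68, -1.87, -1.48, -0.80 and -0.47. Same-numbered libraries deviated together (r = 0.65 across all genes tested, 0.76 across the 27 members), which is a hint from the libraries alone, because the labels do not say that a number marks a shared culture. The median of the tested members ran from -0.16 to 0.10 with 1 library left out. Trim25 had a log2 fold change of -0.0086 with total counts only. With 1 library left out the sign was not constant for Trim25 (-0.15 to 0.19), Irf1 (-0.58 to 0.17), Ifnar1 (-0.37 to 0.082), Ifitm2 (-0.11 to 0.20) and Tyk2 (-0.28 to 0.22), none of them called. Lmnb1 and Lmnb2 were called under every alternative run. Members near the floor of 3 counts were not tested, and a difference there was not detectable at this depth.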

Other observations

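Of the 5 guanylate-binding and related GTPase genes that were tested, Gbp2, Gbp3, Gbp7 and Irgm1 were higher in replicate 1 of both genotypes and Igtp was lower. Interferon-gamma induces these genes, and they were picked out after their values were seen. Gbp2 had 13.1 and 4.67 CPM in wt and 5.22 and 1.61 CPM in dKO libraries. Irgm1 had 11.9 and 5.26 CPM in wt and 9.21 and 2.15 CPM in dKO libraries, and Gbp3 had 1.49 and 0.263 CPM in wt and 1.47 and 0.358 CPM in dKO libraries. Igtp had 0.860 and 1.38 CPM in wt and 1.23 and 1.37 CPM in dKO libraries. Zc3hav1, which encodes the antiviral zinc finger protein ZAP, was also higher in replicate 2 of both genotypes, with 57.9 and 134.9 CPM in wt and 43.8 and 119.6 CPM in dKO libraries.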
